A study of Hymenochirus boettgeri with 8 samples.

Results

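Of 145306 assembly genes measured across early development of Hymenochirus boettgeri, 97 reached the swimming tadpole at a substantial level while staying under 1 TPM at every earlier stage sampled. TPM expresses each transcript as a length-scaled share of its library. The genes were selected on their TPM: a gene was included when its total was at least 20 TPM in both tadpole libraries and below 1 TPM in all 6 libraries of eggs, 8-cell embryos and stage 26 embryos. A gene total was the sum over the transcripts that share one gene identifier. These values chose the genes, so the contrast between tadpoles and the earlier stages is a description. The fit given below sets the genes beside all others, and its p-values and standard errors are no independent test of this contrast. The 97 genes are called tadpole genes here.

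Poly-A RNA came from whole wild-type animals of this species, the dwarf clawed frog of the family of Xenopus, and the labels list no treatment. The groups were unfertilized eggs, 8-cell embryos, embryos at NF stage 26 (the Nieuwkoop and Faber scale for Xenopus; the tail bud is forming) and swimming tadpoles, with 2 libraries each and 8 in all. The labels give neither the age of the tadpoles nor the clutch behind each library. Any p-value here thus sets a difference only against the spread between libraries of the same stage, moderated across genes. That spread may be technical. The identifiers are not paired with gene names in the table, so no gene is given a name, a role or a sequence, and only the 2 most abundant tadpole genes are given by identifier. The others are described by their rank in mean tadpole TPM.

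In frogs, the egg carries a store of maternal RNA, and the embryo's own genome is switched on at the midblastula stage, after the 8-cell stage. At the tail bud stage the body plan is laid out, but most organs have not yet started their larval work. By the time a tadpole swims, blood circulates, and the gut, liver, eyes, skin and muscle are acquiring the products of differentiated cells. Hymenochirus tadpoles are known as small predators that catch prey by suction, unlike the filter-feeding tadpoles of Xenopus. In whole animals, more cells of a type and more RNA per cell cannot be told apart.

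As background, between 33556 (egg replicate 1) and 93289 (tadpole replicate 2) gene totals reached 1 TPM in a library, and the column sums lay between 991754 and 998506. Stage 26 replicate 1 had 92680 such genes and replicate 2 had 67206, so libraries of one stage could differ widely. TPM keeps no depth, and read totals were not used here. No counting intervals can therefore be given.

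The tadpole genes were moderately abundant. Their mean over both tadpole libraries ran from 21.01 to 282 TPM with a median of 54.3 TPM. In tadpole replicate 1 the lowest, median and highest values were 20.1, 55.7 and 428 TPM, and in replicate 2 they were 20.7, 37.7 and 204 TPM. A mean of 50 TPM or more was reached by 50 of the 97, and 100 TPM or more by 21. Together they held 0.902% of all TPM in tadpole replicate 1 and 0.503% in replicate 2, or 0.702% ± 0.282 (SD, n = 2). None was among the 100 most abundant genes of either tadpole library. The highest-placed one ranked 250th in replicate 1 and 382nd in replicate 2, and 30 and 13 of them were among the 1000 most abundant genes of these libraries. The 10 most abundant tadpole genes held 29.1% of the group's TPM in replicate 1 and 23.5% in replicate 2, so the group was not carried by 1 or 2 genes.

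**Figure D1:**
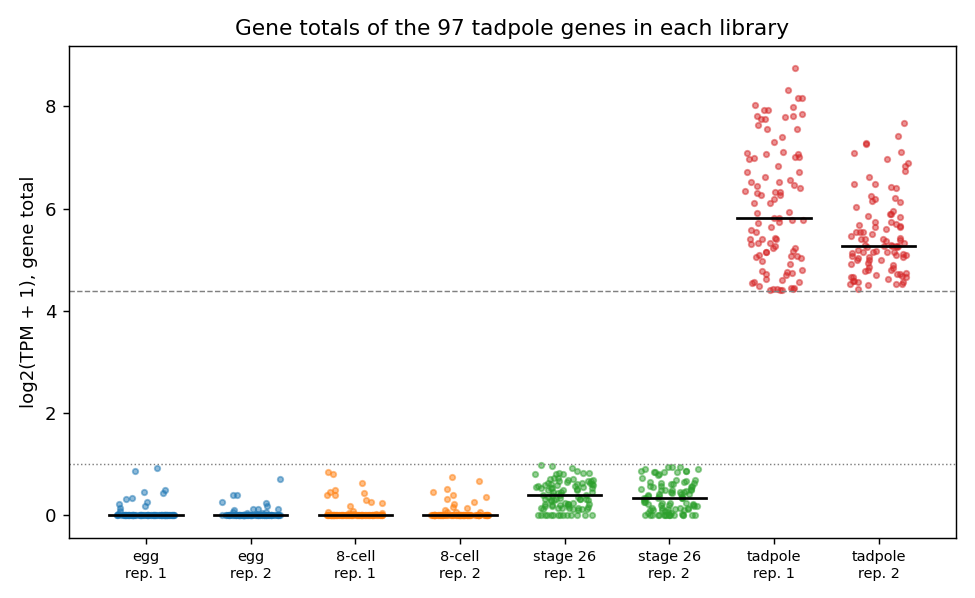
Each point is one of the 97 tadpole genes, plotted as log2(TPM + 1) in each of the 8 libraries, with a black bar at the median. The dashed line marks 20 TPM and the dotted line 1 TPM, the limits that chose the genes. The medians were 0 in the egg and 8-cell libraries, 0.313 and 0.274 TPM at stage 26, and 55.7 and 37.7 TPM in tadpoles.

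The most abundant of them, c134643_g1, was at 428 TPM in tadpole replicate 1 and 136 TPM in replicate 2. At stage 26 it was at 0.636 and 0.823 TPM, at the 8-cell stage at 0.052 and 0 TPM, and in both egg libraries it was listed at 0. The tadpole libraries lay far above all others, but they differed 3.14-fold from each other. On the log2(TPM + 1) scale the difference between tadpole and stage 26 means was 7.14 (SE 0.62 from the fit described below). That fit pools the spread of all stages, and the rule holds the egg, 8-cell and stage 26 values below 1 TPM. Such an SE therefore does not measure the spread of the tadpole libraries alone.

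The next, c12769_g1, was at 284 and 170 TPM in the tadpole libraries and at 0.987 and 0.831 TPM in the stage 26 libraries. All 4 egg and 8-cell libraries listed it at 0. Its difference on the log2(TPM + 1) scale was 6.86 (SE 0.48), and its stage 26 replicate 1 value was the highest that any tadpole gene had outside the tadpole. Both genes had 2 transcripts each. The leading transcript is taken as the one with the highest mean over both tadpole libraries. For c134643_g1 it held 49.5% of the total in tadpole replicate 1 and 66.6% in replicate 2, and the transcripts changed order between these libraries. For c12769_g1 it held 55.8% and 57.1%, and the order stayed.

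Further down, the tadpole libraries could be nearly equal or far apart. Rank 3 was at 168 and 204 TPM, and it alone of the 20 most abundant was higher in replicate 2. Rank 11 was at 158 and 154 TPM. Rank 5, in contrast, was at 319 TPM in replicate 1 and 37.3 TPM in replicate 2, an 8.55-fold gap that was the widest in the group. The widest gap the other way belonged to the gene of rank 59, at 20.9 and 64.2 TPM, or 3.07-fold.

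Although these genes passed the limit of 1 TPM only in tadpoles, most were listed above 0 at stage 26. The tadpole is thus where they first passed that limit, but for most not where they were first listed above 0. How many reads stand behind such a trace is not known. Above 0 were 83 of the 97 in stage 26 replicate 1 (85.6%) and 82 in replicate 2 (84.5%). Over all 145306 genes the shares were 82.8% and 77.5%. All genes include those at 1 TPM or more, 92680 and 67206 in these libraries, which the rule keeps out of the 97. The shares are thus not on a like basis, and whether a trace sets the tadpole genes apart was not tested. In the egg libraries 13 and 16 were above 0, and in the 8-cell libraries 19 and 17. That is 13.4% to 19.6% of the 97, against 35.2% to 57.5% of all genes in these 4 libraries. Here too all genes include those at 1 TPM or more, from 33556 to 53947 in a library. The rule thus sets part of this gap, and nothing is read from it. Both stage 26 libraries were above 0 for 76 genes and exactly 1 for 13. For 61 genes both stage 26 values lay above all 4 egg and 8-cell values. Of these, 44 were at 0 in all egg and 8-cell libraries, so any trace in both stage 26 libraries was enough. The share over all genes was not computed, so nothing particular to the tadpole genes is read from this count. The stage 26 median was 0.313 TPM in replicate 1 and 0.274 TPM in replicate 2, against 0 in each egg and 8-cell library. Summed over the 97 genes, the level was 4.10 and 2.32 TPM in eggs, 4.89 and 3.79 TPM in 8-cell embryos, 33.1 and 31.3 TPM at stage 26, and 8972 and 4989 TPM in tadpoles. The rule limits all these early values to under 1 TPM, so they are given without a test.

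**Figure D2:**
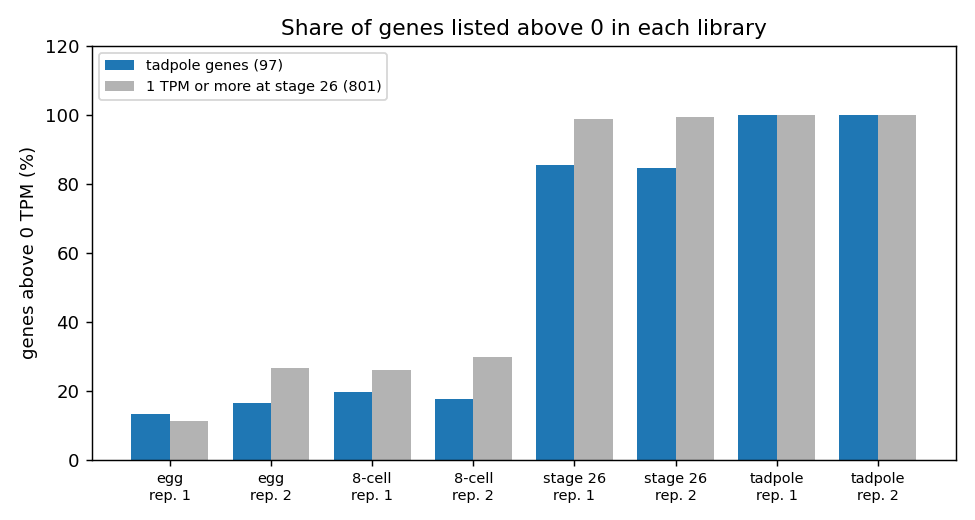
Bars give the share of genes listed above 0 TPM in each library, for the 97 tadpole genes (blue) and for the 801 genes with the same tadpole and egg and 8-cell limits but at least 1 TPM in a stage 26 library (grey). Of the tadpole genes 85.6% and 84.5% were above 0 in the stage 26 libraries, against 13.4% to 19.6% in the egg and 8-cell libraries. The grey bars at stage 26 are set by the choice of those genes.

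Where both stage 26 libraries were above 0, the tadpole mean was 32.4 to 563 times the stage 26 mean, with a median of 212 times over 76 genes. The limits of the rule force a large ratio for each of these genes. Spearman's rho between stage 26 mean and tadpole mean was 0.390 across the 97 genes, which share their libraries and are not independent. The rule bounds both means, so this rho and the split by abundance that follows are descriptions only. The 20 most abundant had a median stage 26 mean of 0.552 TPM, and 19 of them were above 0 in both stage 26 libraries. The other 77 had a median of 0.234 TPM, with 57 above 0 in both. Across genes, the traces in the stage 26 libraries correlated with each other at a rho of 0.487, and the tadpole libraries at 0.582.

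A small set had no trace at all. Listed at 0 in all 6 earlier libraries were 8 genes, each with 1 transcript, at 25.7 to 216 TPM in the tadpole libraries. The most abundant of these, of rank 8, was at 216 and 124 TPM. The next, of rank 25, was at 97.9 and 85.2 TPM. Their median tadpole mean was 57.5 TPM, close to the 54.3 TPM of the remaining 89 genes. No gene that was at 0 in both stage 26 libraries was above 0 in an egg or 8-cell library.

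The egg and 8-cell libraries listed 65 of the 97 genes at 0 throughout. Of the remaining 32, 13 were above 0 in 1 of these 4 libraries, 9 in 2, 6 in 3 and 4 in all. A value of 0.5 TPM or more was reached early by 4 genes, of ranks 72, 86, 90 and 91. The gene of rank 90 had the reverse order of the earlier stages: it was at 0.820 and 0.648 TPM in eggs, 0.547 and 0.676 TPM at the 8-cell stage, 0.108 and 0.140 TPM at stage 26, and 26.3 and 22.8 TPM in tadpoles. Its stage 26 values lay below all 4 earlier ones. The gene of rank 91 was at 0.912 and 0.311 TPM in eggs, 0.793 and 0.291 TPM at the 8-cell stage, 0.502 and 0.807 TPM at stage 26 and 22.3 and 25.8 TPM in tadpoles, with no order among the stages before the tadpole. In all, 3 of the 97 had a higher mean over the egg and 8-cell libraries than at stage 26.

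The tadpole genes form the low end of a wider range of genes that were below 1 TPM before stage 26. Both tadpole libraries were at 20 TPM or more for 4266 genes, and 898 of these (21.1%) were below 1 TPM in all egg and 8-cell libraries. Among the 898, the higher stage 26 library was below 1 TPM for the 97 tadpole genes (10.8%), from 1 to under 2 TPM for 35 and at 20 TPM or more for 422. The median of that library was 17.95 TPM over the 898. In both stage 26 libraries, 231 had at least 20 TPM.

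**Figure D3:**
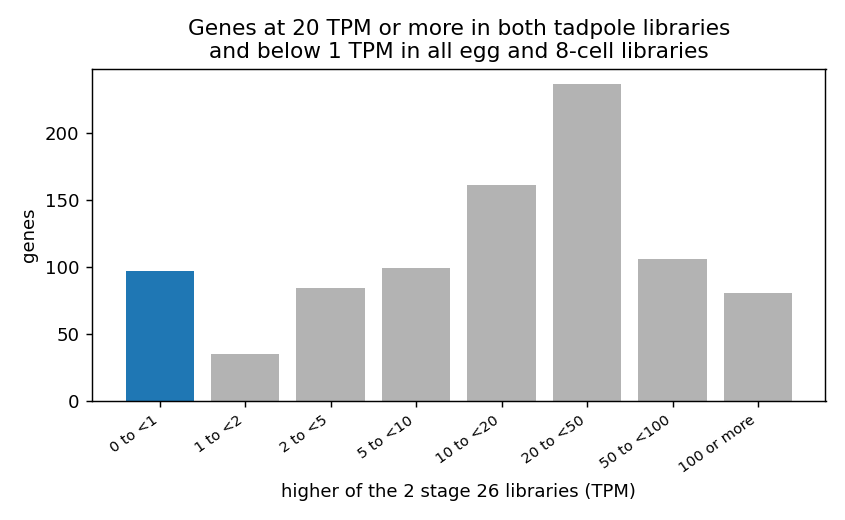
Bars count the 898 genes with at least 20 TPM in both tadpole libraries and below 1 TPM in all egg and 8-cell libraries, by their higher stage 26 library in TPM, in bins of unequal width. The blue bar is the 97 tadpole genes, and 422 genes lie in the 3 bins from 20 TPM upward.

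The limits fell within dense regions. The lowest tadpole minimum inside was 20.1 TPM and the highest outside was 19.6 TPM, with 24 tadpole genes below 25 TPM and 67 further genes from 15 to 20 TPM. On the other limit, the highest value inside in any of the 6 other libraries was 0.987 TPM, at stage 26, and the lowest outside was 1.03 TPM. There were 40 tadpole genes at 0.5 TPM or more in some earlier library and 22 further genes from 1 to 1.5 TPM. A stage 26 library set the highest value for 19 of those 22. One stage 26 library alone kept out 33 genes at replicate 1, with a median of 2.42 TPM there, and another 33 at replicate 2, with a median of 3.14 TPM.

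The tadpole minimum also left out genes that reached 20 TPM in 1 tadpole library only. With the same limit on the earlier libraries, 109 genes were at 20 TPM or more in tadpole replicate 1 alone. Their median was 27.2 TPM there and 12.6 TPM in replicate 2, and 71 of them reached 10 TPM in replicate 2. Another 87 were at the minimum in replicate 2 alone, with a median of 23.9 TPM there and 6.19 TPM in replicate 1. Of these 87, 36 reached 10 TPM in replicate 1 and 7 were listed at 0 there. The counts of genes under the rule without 1 tadpole library were 184 (without replicate 1) and 206 (without replicate 2), and both counts include the 97.

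The tadpole genes were higher in tadpole replicate 1 more often than in replicate 2. Of the 97, 67 (69.1%) were higher in replicate 1, 32 by more than 2-fold, and 3 were more than 2-fold higher in replicate 2. The median log2 ratio of replicate 2 to replicate 1 was -0.49. Among the 4169 other genes that passed the same tadpole minimum, 55.0% were higher in replicate 1 and the median log2 ratio was -0.11. Among the 801 genes that also stayed below 1 TPM in eggs and 8-cell embryos but reached 1 TPM at stage 26, 49.2% were higher in replicate 1 and the median log2 ratio was 0.01. These ratios compare single libraries, so none of the differences between the sets was tested.

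The lean to replicate 1 was most marked among the 20 genes with the highest tadpole mean, a split made after the values were seen. That mean holds the replicate 1 value itself, and replicate 1 had the wider range, up to 428 TPM against 204 TPM. The ranking thus favours genes high in replicate 1, and the split is a description only. The genes of ranks 21, 22 and 23, just past the cut, were all higher in replicate 2. Of the 20 most abundant, 19 were higher in replicate 1, 14 by more than 2-fold, with a median log2 ratio of -1.63. Of the other 77, 48 were higher in replicate 1 and the median was -0.22. For comparison, 424 other genes had a tadpole mean in the same range as the top 20, from 116 to 282 TPM, and 61.3% of them were higher in replicate 1 with a median of -0.37. Median-of-ratios scaling moves the log2 ratio of every gene by the same -0.33, which leaves the distance between the sets as it was. The medians then were -0.82 for the tadpole genes, -0.44 for the 4169 others and -0.32 for the 801. With quantile normalization they were -0.49, -0.10 and 0.04. The labels do not tell the ages of the tadpoles in either library, so age and library cannot be told apart.

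**Figure D4:**
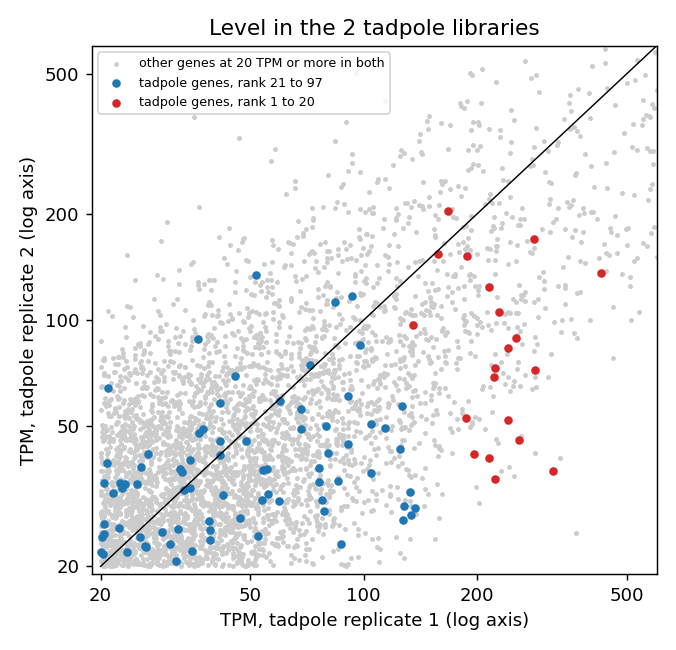
Each point is a gene at 20 TPM or more in both tadpole libraries, with TPM in replicate 1 against replicate 2 on log axes that stop at 600 TPM. Red points are the 20 most abundant tadpole genes, blue points the other 77 and grey points other genes; the line marks equal values. Of the red points, 19 lie below the line, and 1 lies above it.

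The typical gap between the tadpole libraries was near that of other genes, but wide gaps made up a larger share of the tadpole genes. The median absolute log2 ratio was 0.63 for the tadpole genes, 0.58 for the 801 genes and 0.62 for the 4169 others. More than 2-fold apart were 36.1% of the tadpole genes, 26.0% of the 801 and 27.4% of the 4169. Of the 20 most abundant tadpole genes, 14 were that far apart. Of the other 77, 18 were more than 2-fold higher in replicate 1 and 3 in replicate 2. Within 1.5-fold were 45 of the 97 (46.4%), 50.2% of the 801 and 48.3% of the 4169.

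The number of transcripts per gene was not used in the choice. A single transcript was listed for 52 of the 97 (53.6%), 2 for 32, 3 for 5, 4 for 6 and 5 for 2, or 165 transcripts in all. Among the 801 genes 45.9% had 1 transcript, among the 4169 others 50.9% and among all genes 70.2%. In the 45 genes with several, none of the 113 transcripts was listed at 0 in both tadpole libraries, and 44 genes had at least 2 transcripts at 1 TPM or more in both. The leading transcript by tadpole mean held a median of 72.3% of the total in tadpole replicate 1 and 73.0% in replicate 2. The same transcript was highest in each of the 2 libraries for 38 of the 45 (84.4%). That compares with 81.5% of 433 genes among the 801 and 83.7% of 2046 among the 4169. In 3 genes the leading transcript by mean held at least 90% in both libraries, and in 16 it held under 60% in at least 1. The share of the leading transcript differed between the tadpole libraries by a median of 6.35 percentage points. The largest shift was in the gene of rank 59, where it held 76.8% in replicate 1 and 42.8% in replicate 2, and a different transcript led in each library.

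Genes that share a component number in their identifier were taken as linked in the assembly, from the form of the identifier alone. The parts of one gene, close copies or genes joined by shared sequence can be linked so, and reads may be split between them. Such a partner was listed for 39 of the 97 tadpole genes (40.2%), against 53.7% of the 801, 48.3% of the 4169 and 33.6% of all genes. Where reads are split in this way, levels of these 39 are less certain than those of the 58 alone in their component, which was not tested. The component total met the rule for only 6 of these 39 and missed it for 33. The 58 genes alone in their component pass by definition.

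The partners were of several kinds. In 4 components there was a pair of tadpole genes. Besides these, the 39 genes had 94 partners, of which 40 stayed below 1 TPM in all 6 earlier libraries. Of these 40, 37 were at 1 TPM or more in both tadpole libraries, with means from 1.44 to 44.1 TPM there and a median of 12.4 TPM. The lowest of their tadpole values was 1.18 TPM, close to the limit of 1 TPM for the earlier libraries. The same share over all genes below 1 TPM in the 6 earlier libraries was not computed. The count of 37 therefore only describes these partners. In contrast, 22 partners reached 1 TPM in an egg or 8-cell library and 51 reached it at stage 26. The tadpole genes with an egg or 8-cell partner at 1 TPM or more numbered 14, and those with one at 10 TPM or more numbered 6.

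One component of 6 genes held several that were high in tadpoles alone. Besides the genes of ranks 3 and 34 (91.2 and 61.1 TPM in tadpoles), it held a gene at 355 and 392 TPM in tadpoles that was at 0 and 1.45 TPM at stage 26 and at 0 in eggs and 8-cell embryos. That gene was more abundant in tadpoles, by mean, than any of the 97, and its stage 26 replicate 2 value alone kept it out. A further gene of the component was at 25.9 and 18.4 TPM in tadpoles and at most 0.072 TPM before. Not all its genes did this: one was at 5.19 and 24.6 TPM at stage 26 and 44.7 and 18.2 TPM in tadpoles, so these stages overlapped. The last was low throughout, with 0.822 and 2.80 TPM in tadpoles.

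Other components paired a tadpole gene with a maternal one. The gene of rank 48 was listed beside a partner at 67.3 and 94.4 TPM in eggs and 130 and 89.97 TPM at the 8-cell stage. That partner was at 24.8 and 23.9 TPM at stage 26 and 14.7 and 20.8 TPM in tadpoles, below all egg and 8-cell values. Beside the gene of rank 55 was one at 109 and 34.1 TPM in eggs, 39.0 and 54.5 TPM at the 8-cell stage, 41.2 and 29.6 TPM at stage 26 and 20.6 and 30.6 TPM in tadpoles. In all, 5 of the 94 partners had both tadpole libraries below all 4 egg and 8-cell libraries. The share over all genes was not computed, so this count only describes the partners. In another kind of pairing the partner was already high at stage 26: the gene of rank 69 shared its component with one at 514 and 169 TPM at stage 26 and 302 and 322 TPM in tadpoles.

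**Figure D5:**
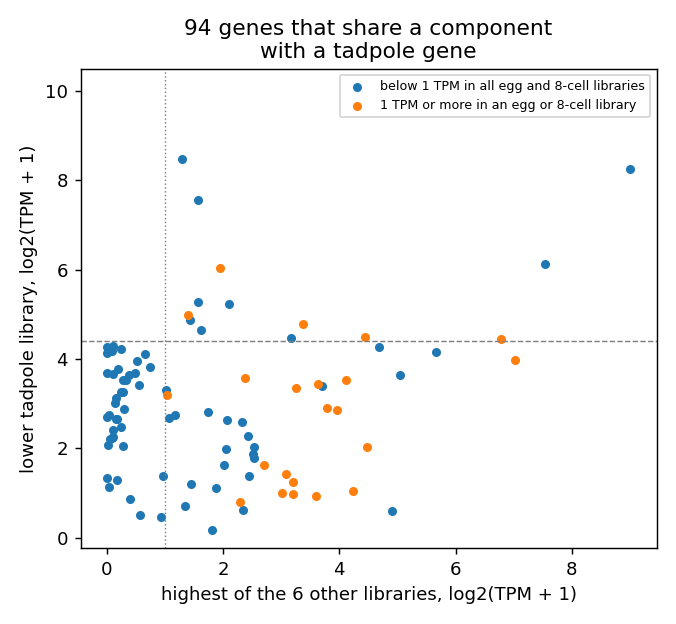
Each point is one of 94 genes that share a component with a tadpole gene without being one, with the highest of the 6 earlier libraries against the lower tadpole library, both as log2(TPM + 1). The dotted line marks 1 TPM and the dashed line 20 TPM; orange points are the 22 genes at 1 TPM or more in an egg or 8-cell library. The 40 genes left of the dotted line all lie below the dashed line, as the rule fixes: any above it would be tadpole genes.

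To set these genes beside all others, a linear model was fitted to log2(TPM + 1) of 119072 gene totals with at least 1 TPM in 2 or more libraries. The 97 passed that filter through the tadpole libraries alone. From stage 26 to tadpole, 5183 gene totals rose, which is 4.35% of those tested, and 1168 fell (limma, two-sided moderated test, Benjamini-Hochberg adjusted p under 0.05). All 97 were among the calls that rose, with adjusted p from 0.0166 to 0.0194 (limma). The rule used this contrast, so nothing is read from that count. Their log2 differences ran from 3.90 to 7.36 with a median of 5.37, on the log2(TPM + 1) scale. The median over all genes tested was 0. The limits of the rule force a large difference for each of the 97, so nothing is read from this contrast either.

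The calls depended on which libraries were in the fit, and the reason was not tested. Of the 5183 rises, 3961 had a value of 0 in every egg and 8-cell library and so add no spread from those stages. Among all 119072 genes tested the balance was the reverse: most, 86802, were above 0 in at least 1 of these libraries. Genes at 0 in all of them thus made up a larger share of the rises than of the genes tested. Each fit without 1 library also had 3 residual degrees of freedom in place of 4. This held too for the fit without stage 26 replicate 1, in which the number of rises did not drop. Without egg replicate 1 there were 65 rises in all, 32 of them tadpole genes, and without egg replicate 2 there were 87, with 47 tadpole genes. No gene passed (limma) without 8-cell replicate 1, 8-cell replicate 2, stage 26 replicate 2 or either tadpole library, or when the egg and 8-cell libraries were all left out. In the fit without all egg and 8-cell libraries, 9731 genes were higher in tadpoles at an unadjusted p under 0.05 and 3904 were lower (limma). The 97 were among the higher ones.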

How the data were processed

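The authors deposited TPM values per transcript, which per the submitters' processing notes come from kallisto 0.42.4. How the reference transcripts were assembled or filtered is not stated in the labels or the file header. Columns were matched to samples by title, and stages and replicate numbers came from the source names. The table holds 220713 transcripts, which were summed to 145306 gene totals by removing the isoform number from the identifier.

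The selection rule and its limits were chosen with earlier results of these data known, as were the sets compared. TPM is relative within a library, so a rise of abundant transcripts lowers the values of others. The named genes are the 2 with the highest tadpole mean. Gene totals were fitted with limma 3.58.1 in R 4.3.3, with a mean for each stage, a trended prior variance, a pseudocount of 1 TPM, 4 residual and 3.12 prior degrees of freedom. Fold changes on this scale understate changes of low genes. Alternatives covered the thresholds, the pseudocount, the filter, the scaling, the prior variance, the samples fitted, a replicate block and leaving out single libraries. Summaries used Python 3.11.15, pandas 2.3.3 and numpy 2.4.6, and plots matplotlib 3.10.9.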

Additional observations from a re-analysis of the deposited data

How the results depend on the processing

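The replicate numbers are shared by the stages, and nothing else is known to pair the libraries. The deviations of same-numbered libraries correlated at -0.273 (stage 26 and tadpole) to 0.165 (egg and 8-cell) between stages. These correlations do not decide whether the libraries were paired. With the replicate block, 0 gene totals rose from stage 26 to tadpole and 0 of the 97 were called (limma, smallest adjusted p 0.0556). At an unadjusted p under 0.05, 12492 were higher in tadpoles and 4866 lower (limma). The 5183 rises became 1515 with a filter of 5 TPM in 2 libraries, 2732 with quantile normalization, 2444 with a constant prior variance, 0 in the fit without egg and 8-cell libraries (0 of the 97) and 77 when genes at 0 in every egg and 8-cell library were removed, which left 32 of the 97 in the test, 30 of them called. With 1 library left out they ranged from 0 to 6062, and the calls among the 97 from 0 to 94. Without a tadpole library the 97 do not pass the filter, so no value is given. With both other pseudocounts, both other filters, both other scalings and the constant prior variance, all 97 were called. The rule itself gave 294 genes with a tadpole minimum of 10 TPM and 98 to 206 with 1 library left out. With a minimum of 50 TPM it gave 26 genes holding 0.346% of tadpole TPM, 13 with 1 transcript, 11 with the same leading transcript in both tadpole libraries, 21 higher in tadpole replicate 1, 21 above 0 in both stage 26 libraries and a median absolute log2 ratio of 0.77. With a limit below 0.5 TPM it gave 57 genes, and these values were 0.310%, 34, 19, 35 and 38. With a limit below 2 TPM it gave 145 genes holding 1.17%, with 62 sharing a leading transcript and 118 above 0 at stage 26. Leaving out 1 library gave shares of 0.709% to 1.30% and 53 to 113 genes with 1 transcript. The 1.30% came from tadpole replicate 1 alone, whose values also chose its 206 genes. With any library but a stage 26 one left out, 76 to 135 genes were above 0 in both stage 26 libraries. With any but a tadpole one left out, the median absolute log2 ratio was 0.62 to 0.65. Over the 97 it was 0.89 with median-of-ratios scaling and 0.67 with quantile normalization. These scalings chose 101 and 92 genes, of which 90 and 78 are among the 97. TPM keeps no depth, so it is not known how many reads stand behind the traces below 1 TPM.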
